A study of Homo sapiens with 6 samples.

Results

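The SLC25 family is the large family of mitochondrial carriers, proteins of the inner membrane that move nucleotides, phosphate, amino acids, organic acids, cofactors and iron between the cytosol and the matrix. It was taken here as the 48 genes of the deposited table whose symbol begins with SLC25A, out of 20289 genes. RNA came from Huh7 cells, a human hepatocellular carcinoma line, in 3 wild-type libraries and 3 libraries of cells with a knockout of UBE2S, which encodes an E2 enzyme that extends ubiquitin chains for the anaphase-promoting complex. The question of the series was which factors UBE2S acts through. No treatment or time point is given in the labels, and the sources used here do not say how the knockout was made or from how many clones. Nothing says that the replicates were separate cultures, so the spread behind each p-value is that of these samples alone and may be technical. Of the 48 carrier genes, 41 passed the filter on low counts and were tested.

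Most carriers exchange one solute for another by alternating between a state open to the cytosol and a state open to the matrix. In liver-derived cells they link cytosolic and mitochondrial metabolism: they supply ADP and phosphate for ATP synthesis, export citrate for lipid synthesis, run the malate-aspartate shuttle and the urea cycle, and bring in carnitine esters, iron and cofactors. Family members named under other symbols, such as the uncoupling proteins, were kept apart from the 48.

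The libraries held 21840499 to 27910396 estimated counts each. UBE2S mRNA was 224 ± 9.37 CPM (the usual counts-per-library-total unit, after TMM scaling; mean ± SD, n = 3) in wild type and 45.7 ± 1.70 CPM in knockout cells. Wild-type replicate 1 stood somewhat apart, since the chi-square per degree of freedom was 8.41 and 10.9 in its comparisons with replicates 2 and 3 and 1.80 between those. All 10 hepatocyte and fetal liver markers were present, with a summed level of 31299 to 31927 CPM in wild type and 28367 to 28929 CPM in knockout cells. Of these, 2 were higher and 7 lower at an edgeR adjusted p below 0.05 (20% and 70%, against 29.4% and 30.7% of all tested genes). The part of these markers in the differences of the carriers was not tested. In bulk RNA, fewer cells of a type and less RNA per cell cannot be told apart. Markers of fibroblasts summed to 9.02 to 9.36 CPM in wild type and 12.4 to 14.1 CPM in knockout cells. Of these, COL1A1, COL3A1 and PDGFRA were called higher and LUM lower (0.98 and 0.24 CPM). Endothelial markers summed to 5.74 to 7.08 and 2.32 to 2.86 CPM, mostly PECAM1 (5.72 and 2.06 CPM, called lower). The other endothelial markers were below the filter, with KDR at 0. Immune markers summed to 273 to 297 and 172 to 174 CPM, nearly all of it LYZ (280 and 168 CPM), while CD3E was at 0 in every library.

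The abundance of the carriers spanned a wide range. Per kilobase of exonic length (all annotated exons of a gene merged, which lowers the value of genes with many long transcripts), SLC25A5, the ADP/ATP carrier isoform of growing cells, was the most abundant, at 207 ± 5.51 CPM per kb in wild type and 207 ± 2.86 in the knockout. Before division by length, SLC25A3 stood above SLC25A5, at 552 against 311 CPM in wild type and 588 against 311 CPM in the knockout. Their merged exons span 8896 and 1500 bases, so this first place depends on the annotated length. The phosphate carrier SLC25A3 (62.1 ± 4.22 CPM per kb in wild type), the citrate carrier SLC25A1 (60.6 ± 0.340) and the ADP/ATP carrier SLC25A6 (56.1 ± 4.02) came next. Their spreads met or nearly met in wild type, so their order there is not settled. In the knockout they were further apart, at 66.1 ± 0.615, 49.2 ± 0.863 and 40.1 ± 0.724 CPM per kb. The aspartate/glutamate carrier SLC25A13, known as citrin, followed at 37.9 ± 1.76 CPM per kb and the oxoglutarate carrier SLC25A11 at 26.5 ± 0.738. These 6 held the same order in the knockout. At the other end, SLC25A34, SLC25A12 and SLC25A53 passed the filter with a mean below 1 CPM in both groups.

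**Figure D1:**
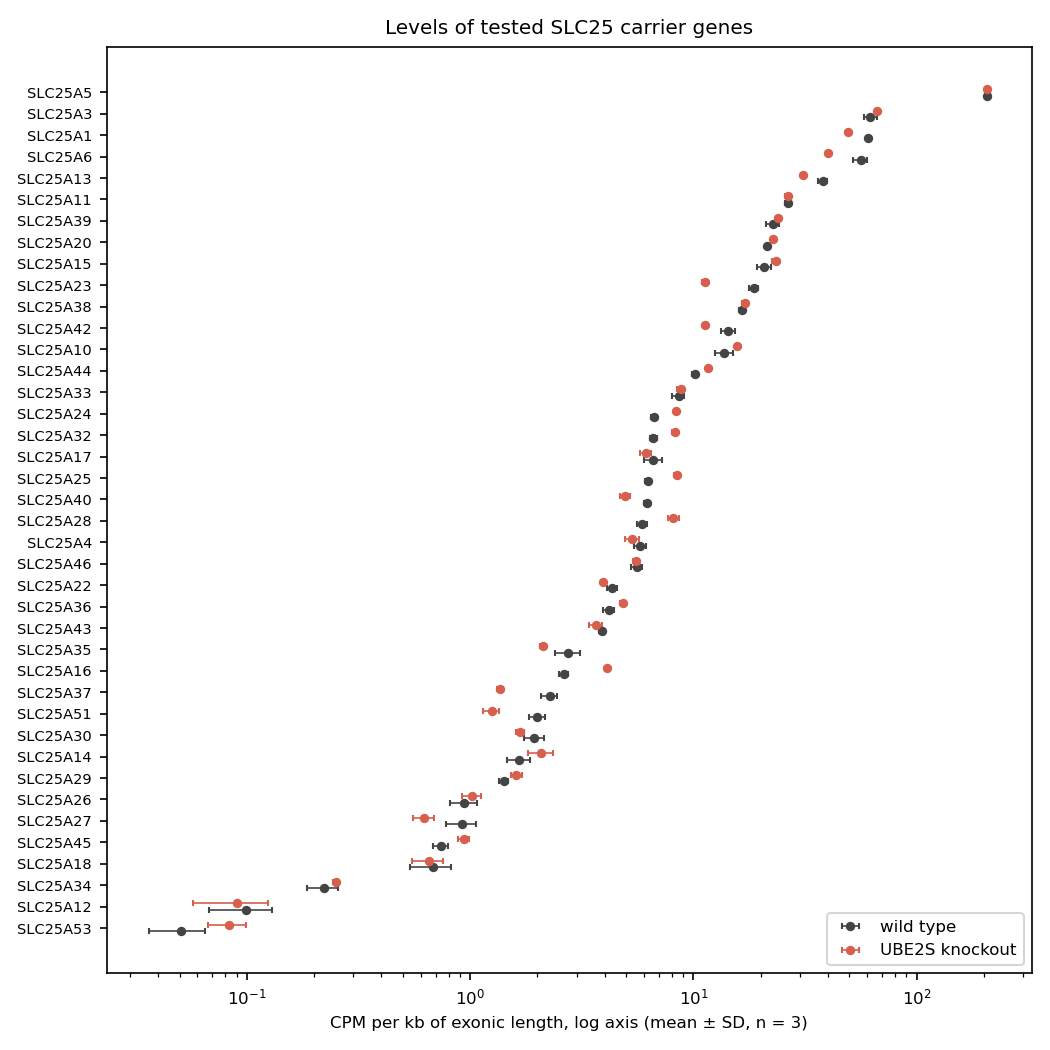
Level of 40 of the 41 tested carrier genes in CPM per kilobase of exonic length on a log axis, as mean ± SD over 3 wild-type (dark grey) and 3 UBE2S knockout (red) libraries, ordered by the wild-type level. SLC25A5 stands highest, at 207 CPM per kb in both groups, and SLC25A12 and SLC25A53 lowest.

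The 7 carriers that did not pass the filter were close to absent. SLC25A31, the ADP/ATP carrier of the testis, had 0 counts in all 6 libraries. SLC25A2, SLC25A47 and SLC25A52 had 2, 3 and 1 counts over all libraries. SLC25A41, an ATP-Mg/phosphate carrier, had 5 counts in wild type and 0 in the knockout, and the oxoadipate carrier SLC25A21 had 10 and 5. SLC25A48 had 11, 9 and 6 counts in the wild-type libraries and 1, 1 and 2 in the knockout libraries, a ratio of 5.91 after scaling for depth (exact 95% binomial interval 2.05 to 23.3, which covers counting error alone).

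The family as a whole did not shift in 1 direction. Of the 41 tested carriers, 12 were higher and 11 lower in the knockout at an edgeR adjusted p below 0.05 and 18 were not called, so that 56.1% were called, against 60.1% of all 13265 tested genes. Higher calls made up 29.3% of the carriers (29.4% of all genes) and lower calls 26.8% (30.7% of all genes). The median log2 fold change of the carriers was -0.0011, against -0.00057 for all tested genes. Summed over the family, the level was 2212 to 2293 CPM in the wild-type libraries and 2215 to 2220 CPM in knockout cells libraries. The knockout and wild-type libraries did not overlap for 26 of the carriers (63.4%), against 65.8% of all genes. The knockout lay above for 15 of the 41 (36.6%, against 32.3% of all genes) and below for 11 of the 41 (26.8%, against 33.5%). Of the called carriers, 18 of 23 had an absolute log2 fold change under 0.5, and 5 reached it, which is 12.2% of the 41 tested carriers against 18.9% of all tested genes. Those 5 were SLC25A37, SLC25A23, SLC25A51 and SLC25A27, which fell (4 of 41; 9.83% of all genes fell as far), and SLC25A16, which rose (1 of 41; 9.11% of all genes rose as far).

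**Figure D2:**
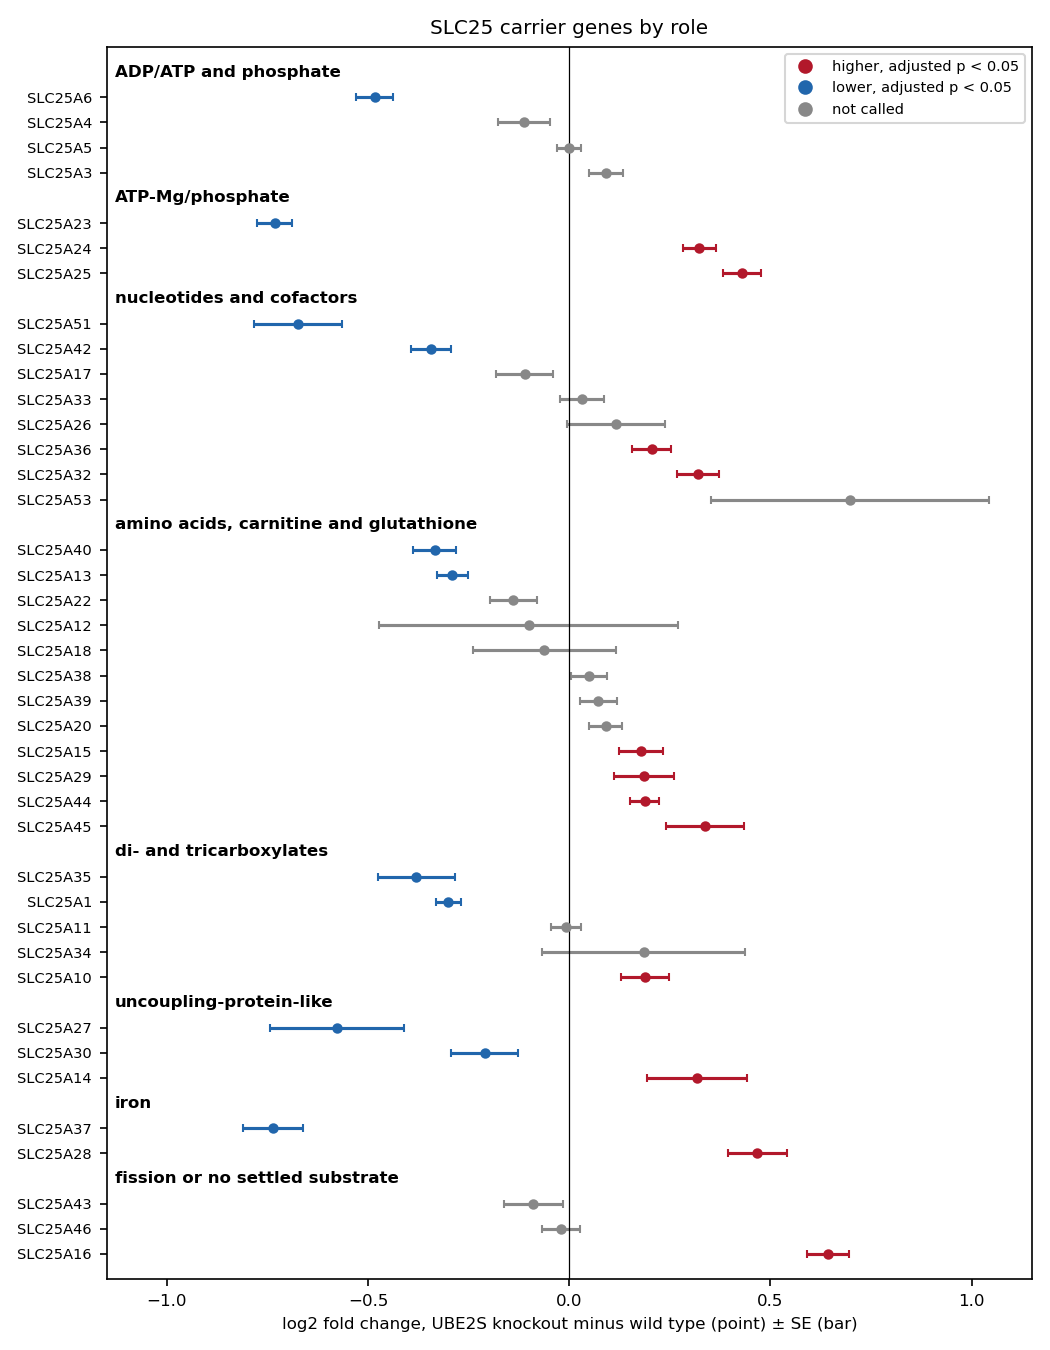
Log2 fold change (knockout minus wild type, points) ± SE (bars) of 40 of the 41 tested carriers, grouped by assigned role class. Carriers called higher are in red, lower in blue and not called in grey. Changes in both directions stand inside 6 of the 8 role classes.

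Among the carriers of ADP, ATP and phosphate, which supply the ATP synthase and release its product, 1 of 4 tested genes was called. SLC25A3 had 13767, 13411 and 16062 counts in the wild-type libraries (509, 575 and 573 CPM) and 12805, 13790 and 15382 in the knockout libraries (582, 590 and 593 CPM). The knockout values lay just above the wild-type values, but the difference did not pass the test (log2 fold change 0.09, SE 0.04, edgeR adjusted p = 0.076). SLC25A5 was level, at 302, 314 and 317 CPM in wild type and 309, 316 and 307 CPM in knockout cells (log2 fold change -0.0011, SE 0.03). SLC25A4, the isoform of heart and muscle, was the least abundant of the 3 detected isoforms per kilobase (5.77 CPM per kb in wild type), at 27.9 ± 1.76 and 25.8 ± 1.84 CPM, with overlapping groups (-0.11, SE 0.06). The muscle markers ACTA1, MYH7, CKM and MYL2 summed to 0.086 to 0.386 CPM over the libraries, with MYL2 at 0.

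The isoform that changed was SLC25A6, which fell by 0.48 in log2 units (SE 0.05, edgeR adjusted p = 1.9e-06). Its level was 131, 115 and 117 CPM in the wild-type libraries and 85.0, 87.3 and 88.0 CPM in knockout cells libraries, and the groups did not overlap. The gene lies on chromosome X, minus strand, from 1386152 to 1392724 in GRCh38. It sits in a region that the X and Y chromosomes share. The median log2 fold change of its tested neighbours, which were not limited to that region, was -0.48 as well. With that value taken as its offset, SLC25A6 was at -0.0082 and was no longer called (edgeR adjusted p = 0.90). These isoforms are similar in sequence, so reads could have been assigned to the wrong one, which was not tested; how the counting treated such reads is not stated.

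The calcium-regulated carriers that exchange ATP-Mg for phosphate, and so set the pool of adenine nucleotides in the matrix, split by isoform: 1 fell and 2 rose. SLC25A23, at positions 6436079 to 6465203 of chromosome 19, minus strand (ENSG00000125648), had 2583, 2050 and 2487 counts in wild type (95.5, 87.9 and 88.7 CPM) and 1160, 1314 and 1423 in knockout cells (52.7, 56.2 and 54.9 CPM). All knockout libraries lay well below all wild-type libraries, a fall by 0.73 in log2 units (SE 0.04, edgeR adjusted p = 2.2e-08), the smallest p among the carriers. SLC25A24 moved the other way, from 1174, 1077 and 1268 counts (43.4, 46.2 and 45.2 CPM) to 1242, 1293 and 1474 (56.5, 55.3 and 56.8 CPM), a log2 difference of 0.32 (SE 0.04, edgeR adjusted p = 1.8e-05). SLC25A25, whose transcript is known to respond to cyclic AMP and calcium in several tissues, rose from 30.5, 30.2 and 32.1 CPM to 43.2, 41.3 and 40.7 CPM (0.43, SE 0.05, edgeR adjusted p = 6.0e-06). SLC25A23 was the most abundant of the 3 in wild type by level per kilobase (18.7 CPM per kb, against 6.68 for SLC25A24 and 6.27 for SLC25A25); in the knockout the values were 11.2, 8.35 and 8.46 CPM per kb.

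The log2 ratio of SLC25A23 to SLC25A24 counts within a library, which does not depend on how libraries are scaled, was 1.14, 0.93 and 0.97 in wild type and -0.10, 0.02 and -0.05 in knockout cells. The mean moved by -1.05, from 1.01 ± 0.11 to -0.04 ± 0.06 (SD, n = 3 each), and the groups did not overlap. All 3 of these carriers kept their call and direction when the shift of their neighbours was taken as an offset: SLC25A23 was then at -0.36 (edgeR adjusted p = 1.8e-05), because its neighbours fell by a median of 0.38, whereas SLC25A24 (0.41) and SLC25A25 (0.46) had neighbours at -0.08 and -0.03.

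The sequences upstream of these oppositely changed genes are shown because they precede RefSeq start sites of genes that moved apart. That of the mitoferrin SLC25A28, described further on, is shown with them. All are from RefSeq on GRCh38.p14, read 5′ to 3′ on the gene's own strand, without annotated exons. The first is the 250 bases before the RefSeq start site of SLC25A23, at chr19:6459793-6460042 on the minus strand, with a CCAAT box in capitals, and the second is a stretch from 250 to 110 bases before the most upstream SLC25A25 start site, at chr9:128067982-128068122 on the plus strand, with a GC box, found on the other strand, in capitals. Another GC box of that SLC25A25 window, 67 bases before the start site, lies outside the printed stretch. The last is the 93 bases before the RefSeq start site of SLC25A28, at chr10:99620440-99620532 on the minus strand, with its nearest CCAAT box in capitals. The SLC25A23 and SLC25A28 stretches lie inside the GENCODE spans of these genes, whose annotation reaches further upstream, so each precedes 1 start site and not every annotated one.
SLC25A23: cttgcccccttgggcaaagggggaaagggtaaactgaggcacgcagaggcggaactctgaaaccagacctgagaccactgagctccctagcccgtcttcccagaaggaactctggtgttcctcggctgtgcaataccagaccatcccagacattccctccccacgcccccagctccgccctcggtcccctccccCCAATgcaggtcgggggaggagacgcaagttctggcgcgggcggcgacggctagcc
SLC25A25: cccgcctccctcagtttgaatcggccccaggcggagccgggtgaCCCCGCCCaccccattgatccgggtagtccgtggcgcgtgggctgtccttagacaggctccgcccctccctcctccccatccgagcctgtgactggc
SLC25A28: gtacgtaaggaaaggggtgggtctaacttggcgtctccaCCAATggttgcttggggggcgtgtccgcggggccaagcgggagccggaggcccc

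A set of 6 motifs was searched on both strands of the 250 bases upstream of each start site, in 51 entries for 40 of the carrier genes and in all 35116 entries. Some genes had several entries, each counted, and SLC25A6 was entered on both X and Y. The CCAAT box (CCAAT) was found in 22 of the 51 carrier entries (from 20 genes), 43.1%, against 32.01% of all entries. The GC box (GGGCGGGG) was found in 18 from 17 genes (35.3%, against 21.8%), the E-box (CACGTG) in 8 (15.7%, against 6.34%), the ETS site (CCGGAAGT) in 4 (7.84%, against 3.42%) and the cyclic AMP response element (TGACGTCA) in 3 (5.88%, against 1.65%). The NRF1 palindrome was found in 0 carrier entries and in 1.03% of all entries. The 3 entries with a cyclic AMP response element were those of SLC25A25 (at another of its start sites than the one printed), SLC25A33 and SLC25A36. Of these genes, SLC25A25 and SLC25A36 rose and SLC25A33, at 0.03 (SE 0.06), was not called. These matches describe the letters of the windows, and no binding was measured.

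Carriers of nucleotides and cofactors had 2 of 9 tested genes higher and 2 lower. SLC25A51, the carrier that brings NAD into mitochondria, fell by 0.67 in log2 units (SE 0.11, edgeR adjusted p = 1.6e-04). The gene (ENSG00000122696) is at positions 37879400 to 37904353 of chromosome 9, minus strand. It had 176, 173 and 180 counts in wild type (6.51, 7.42 and 6.42 CPM) and 101, 91 and 110 in knockout cells (4.59, 3.89 and 4.24 CPM), with no overlap. Its close relative SLC25A52 had 1 count in all, and its neighbours had a median of 0.02.

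SLC25A42, which carries coenzyme A and adenine nucleotides, was the most abundant of this class per kilobase (14.3 CPM per kb in wild type), with 1798, 1582 and 1673 counts in wild type (66.5, 67.9 and 59.7 CPM) and 1130, 1167 and 1332 in knockout cells (51.4, 49.9 and 51.4 CPM). It fell by 0.34 (SE 0.05, edgeR adjusted p = 6.1e-05), while its neighbours had a median of 0.14. In the other direction, the folate and flavin carrier SLC25A32 rose from 24.1 ± 0.886 to 30.1 ± 0.844 CPM (0.32, SE 0.05, edgeR adjusted p = 1.5e-04), and the pyrimidine nucleotide carrier SLC25A36 from 42.99 ± 2.59 to 49.6 ± 1.27 CPM (0.20, SE 0.05, edgeR adjusted p = 0.0032). SLC25A32 shares 69.7% of its exonic bases with an overlapping gene model that had 0 counts. A further 11.1% lie opposite DCAF13, which had 4742 counts in wild type and 4699 in knockout cells (0.12, SE 0.05). The peroxisomal carrier SLC25A17 (-0.11), the S-adenosylmethionine carrier SLC25A26 (0.12; 15.5% of its exonic bases lie opposite LRIG1) and SLC25A53 (0.70, SE 0.35, with 7 to 15 counts a library) did not pass the test.

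Carriers of amino acids, carnitine and glutathione had 4 of 12 tested genes higher and 2 lower, and all 6 changes were small. SLC25A13, which exports aspartate for the malate-aspartate shuttle and the urea cycle and is the liver isoform, was the most abundant of the class per kilobase. It had 3615, 3288 and 4113 counts in wild type (134, 141 and 147 CPM) and 2593, 2640 and 2954 in knockout cells (118, 113 and 114 CPM), and fell by 0.29 (SE 0.04, edgeR adjusted p = 2.9e-05) with no overlap. Its neighbours had a median of -0.27, and with that as an offset SLC25A13 was at -0.02 and not called. The isoform of muscle and brain, SLC25A12, stood at 0.511 ± 0.160 and 0.467 ± 0.172 CPM. SLC25A40, a relative of the mitochondrial glutathione carrier SLC25A39, also fell (-0.33, SE 0.05), with neighbours at -0.24 and a value of -0.10 with the offset (edgeR adjusted p = 0.145). SLC25A39 itself was at 0.07 (SE 0.05) and not called.

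The 4 that rose were the branched-chain amino acid carrier SLC25A44 (0.19, SE 0.04, edgeR adjusted p = 6.3e-04), the ornithine carrier SLC25A15 of the urea cycle (0.18, SE 0.05, edgeR adjusted p = 0.014), the basic amino acid carrier SLC25A29 (0.19, SE 0.07, edgeR adjusted p = 0.048) and SLC25A45 (0.34, SE 0.10, edgeR adjusted p = 0.0090). SLC25A44 had neighbours at 0.17 and lost its call with the offset (0.02). SLC25A15 lost its call without knockout replicate 3 (0.16, edgeR adjusted p = 0.066), and SLC25A45 with DESeq2 (0.34, adjusted p = 0.064). SLC25A29 lost its call without any single library other than wild-type replicate 1, with values of 0.16, 0.17, 0.14, 0.21 and 0.21 without wild-type replicates 2 and 3 and knockout replicates 1, 2 and 3. It also lost it with DESeq2 (adjusted p = 0.206) and limma-voom (adjusted p = 0.052). The carnitine carrier SLC25A20 (0.09, SE 0.04), the glycine carrier SLC25A38 (0.05, SE 0.04) and the glutamate carriers SLC25A22 (-0.14, SE 0.06) and SLC25A18 (-0.06, SE 0.18) did not pass the test.

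Carriers of di- and tricarboxylates had 1 of 5 tested genes higher and 2 lower. The citrate carrier SLC25A1, which feeds cytosolic acetyl-CoA for lipid synthesis, had 3418, 2979 and 3554 counts in wild type (126, 128 and 127 CPM) and 2290, 2362 and 2700 in knockout cells (104, 101 and 104 CPM). The libraries within each group lay close together and the groups did not overlap, a fall by 0.30 (SE 0.03, edgeR adjusted p = 3.0e-06). Its neighbours had a median of -0.28, and with the offset it was at -0.02 and not called. SLC25A35, counted in this class though its substrate is not settled, fell from 10.7 ± 1.35 to 8.27 ± 0.256 CPM (-0.38, SE 0.10, edgeR adjusted p = 0.0042). It shares 33.2% of its exonic bases with RANGRF on the other strand, which was at -0.35 (SE 0.07); without strand information, reads of the pair cannot be told apart. The dicarboxylate carrier SLC25A10 rose by 0.19 (SE 0.06, edgeR adjusted p = 0.016), but lost its call without knockout replicate 1 (0.18, edgeR adjusted p = 0.055) and with the offset (0.04, neighbours at 0.14). It shares 46.6% of its exonic bases with another gene model on the same strand that had 264 and 201 counts over the libraries in wild type and knockout. The oxoglutarate carrier SLC25A11 (-0.0087, SE 0.04) and SLC25A34 (0.18, SE 0.25) did not pass the test.

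The uncoupling-protein-like carriers were at low levels per kilobase (0.92 to 1.94 CPM per kb in wild type), and 1 of 3 was higher and 2 lower. SLC25A27 had 93, 59 and 88 counts in wild type (3.44, 2.53 and 3.14 CPM) and 44, 43 and 59 in knockout cells (2.001, 1.84 and 2.27 CPM). The highest knockout library lay just below the lowest wild-type library, and the gene fell by 0.58 (SE 0.17, edgeR adjusted p = 0.0096); with DESeq2 it was at -0.57 and was not called (adjusted p = 0.054). It lies on the plus strand of chromosome 6 from 46652915 to 46678193 (ENSG00000153291). SLC25A14 had 122, 112 and 159 counts (4.51, 4.80 and 5.67 CPM) against 127, 168 and 150 (5.78, 7.18 and 5.78 CPM), a rise by 0.32 (SE 0.12, edgeR adjusted p = 0.043). SLC25A30 had 315, 316 and 400 counts (11.6, 13.6 and 14.3 CPM) against 250, 255 and 306 (11.4, 10.9 and 11.8 CPM), with 1 wild-type library among the knockout values (-0.21, SE 0.08, edgeR adjusted p = 0.046). Calls of this pair depended on single libraries and on the tool. With DESeq2, neither SLC25A14 (adjusted p = 0.13) nor SLC25A30 (adjusted p = 0.157) was called, and with limma-voom SLC25A30 was not (adjusted p = 0.059). SLC25A14 lost its call without wild-type replicate 1 (0.24), wild-type replicate 2 (0.29) or knockout replicate 2 (0.21). SLC25A30 lost it without wild-type replicates 2 (-0.19) or 3 (-0.14) or knockout replicates 1 (-0.21), 2 (-0.18) or 3 (-0.24).

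The iron carriers, the mitoferrins that supply iron for heme and iron-sulfur clusters, moved in opposite directions. Mitoferrin-1, SLC25A37 (ENSG00000147454, chromosome 8, plus strand, 23528805 to 23575463), had 523, 452 and 469 counts in wild type (19.3, 19.4 and 16.7 CPM) and 245, 251 and 294 in knockout cells (11.1, 10.7 and 11.3 CPM). All knockout libraries lay below all wild-type libraries, a fall by 0.74 (SE 0.07, edgeR adjusted p = 3.0e-06), close to that of SLC25A23. Mitoferrin-2, SLC25A28 (ENSG00000155287, chromosome 10, minus strand, 99610522 to 99620609), the widely expressed isoform, had 291, 244 and 273 counts in wild type (10.8, 10.5 and 9.74 CPM) and 313, 353 and 350 in knockout cells (14.2, 15.1 and 13.5 CPM), a rise by 0.47 (SE 0.07, edgeR adjusted p = 1.3e-04) with no overlap. The log2 ratio of SLC25A28 to SLC25A37 counts went from -0.84 ± 0.05 to 0.37 ± 0.12 (SD, n = 3 each), a difference of 1.20, so that it changed sign between the groups. Per kilobase, SLC25A28 stood above SLC25A37 in both groups, at 5.88 against 2.27 CPM per kb in wild type and 8.13 against 1.36 in the knockout. SLC25A37 is abundant in erythroid cells. Of the red cell markers, HBB, HBG1 and ALAS2 were at 0 in all 6 libraries, and all 5 markers summed to at most 0.036 CPM.

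With neighbours at -0.34, SLC25A37 kept its call under the offset (-0.40, edgeR adjusted p = 7.0e-04). SLC25A28 had neighbours at 0.38 and did not (0.08, edgeR adjusted p = 0.36).

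The last class holds carriers of fission or of no settled substrate, with 1 of 3 genes higher. SLC25A16, linked to coenzyme A uptake, had 534, 502 and 566 counts in wild type (19.7, 21.5 and 20.2 CPM) and 685, 756 and 837 in knockout cells (31.1, 32.3 and 32.3 CPM). It was the largest called rise among the carriers (0.64, SE 0.05, edgeR adjusted p = 4.1e-07), and every knockout library lay well above every wild-type library. The gene (ENSG00000122912) is at positions 68477999 to 68527474 of chromosome 10, minus strand; its neighbours had a median of 0.44, and with the offset it was at 0.21 and still called (edgeR adjusted p = 0.0053). SLC25A46, an outer-membrane protein of mitochondrial dynamics and the most abundant of the class per kilobase (5.59 CPM per kb in wild type), had 1293, 1010 and 1336 counts (47.8, 43.3 and 47.7 CPM) against 1032, 1052 and 1171 (46.9, 44.98 and 45.1 CPM), with overlapping groups (-0.02, SE 0.05). SLC25A43 was at -0.09 (SE 0.07) and not called.

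**Figure D3:**
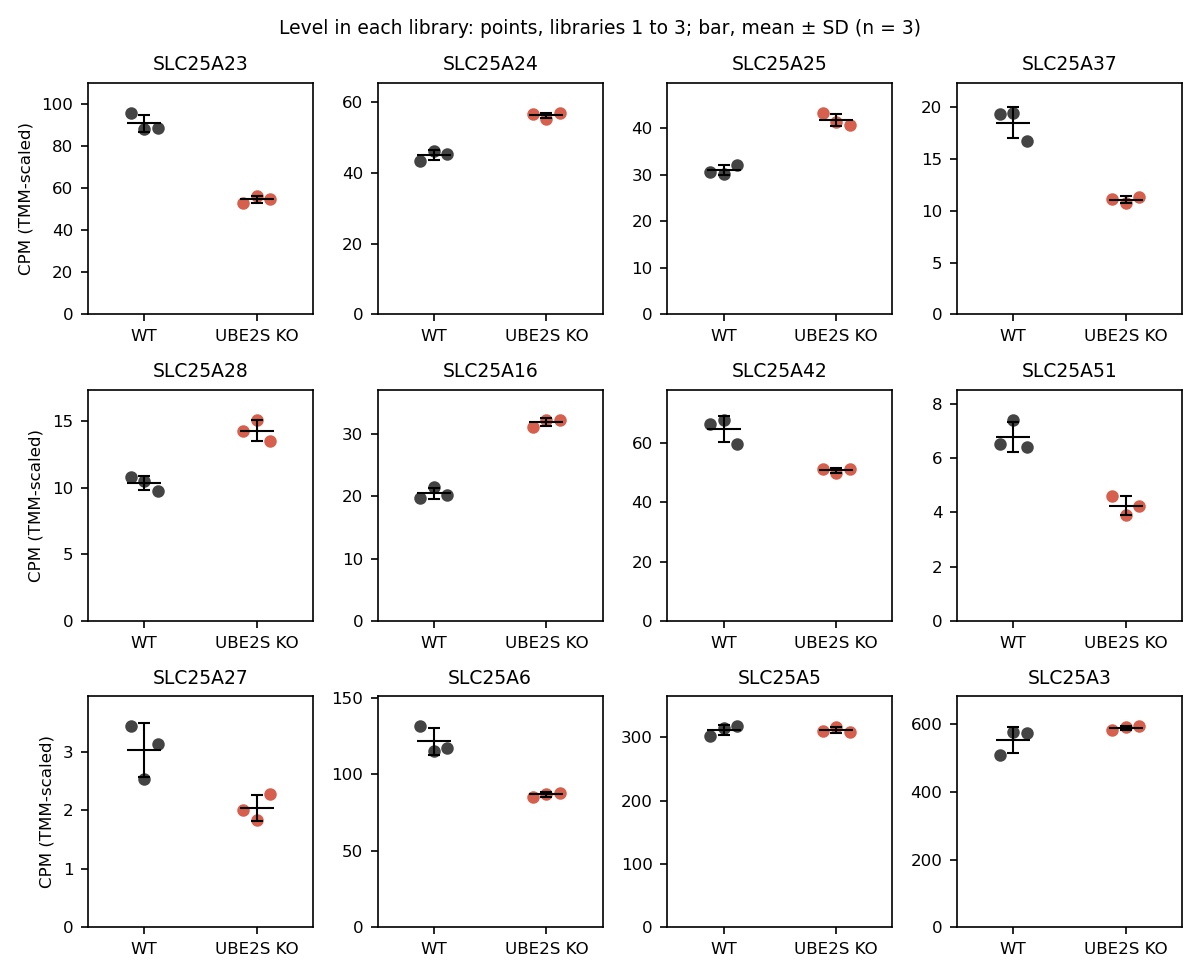
Level in CPM of 12 carriers in each of the 3 wild-type (dark grey) and 3 knockout (red) libraries, with bars for the mean ± SD and axes from 0. The groups are apart for SLC25A23, SLC25A24, SLC25A25, SLC25A37, SLC25A28, SLC25A16, SLC25A42, SLC25A51, SLC25A27, SLC25A6 and, narrowly, SLC25A3, and overlap for SLC25A5.

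Related carriers were also compared within each library, as the log2 ratio of their counts, for 14 pairs in which both genes were tested. The groups did not overlap for 10 of the pairs. The share among unrelated pairs was not computed, and 65.8% of single genes did not overlap, so the count is a description of these pairs. An exact two-sided permutation test of 3 libraries against 3 cannot go below p = 0.10, which each of these 10 pairs reached (0.14 after Benjamini-Hochberg adjustment over the 14), so none could pass the threshold in this design. The share of opposite calls among other pairs was not computed either. Of all tested genes, 29.4% were called higher and 30.7% lower, so a count of opposite calls only describes these pairs. In 4 pairs the genes were called in opposite directions: SLC25A23 and SLC25A24, SLC25A28 and SLC25A37, SLC25A16 and SLC25A42, and SLC25A14 and SLC25A30. Besides the first 2, described above, the SLC25A16 to SLC25A42 ratio moved by 0.98, from -1.66 ± 0.09 to -0.67 ± 0.05, and the SLC25A14 to SLC25A30 ratio by 0.53, from -1.40 ± 0.09 to -0.87 ± 0.23 (SD, n = 3 each). The ADP/ATP carrier ratio of SLC25A5 to SLC25A6 moved by 0.48, from 1.36 ± 0.14 to 1.84 ± 0.03, and the SLC25A39 to SLC25A40 ratio by 0.41. The other pairs without overlap moved less, SLC25A44 to SLC25A46 by 0.20, SLC25A10 to SLC25A11 by 0.20, SLC25A33 to SLC25A36 by -0.17 and SLC25A24 to SLC25A25 by -0.11. Groups overlapped for SLC25A4 to SLC25A5 (-0.11), SLC25A12 to SLC25A13 (0.16), SLC25A18 to SLC25A22 (0.09) and SLC25A20 to SLC25A29 (-0.10).

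**Figure D4:**
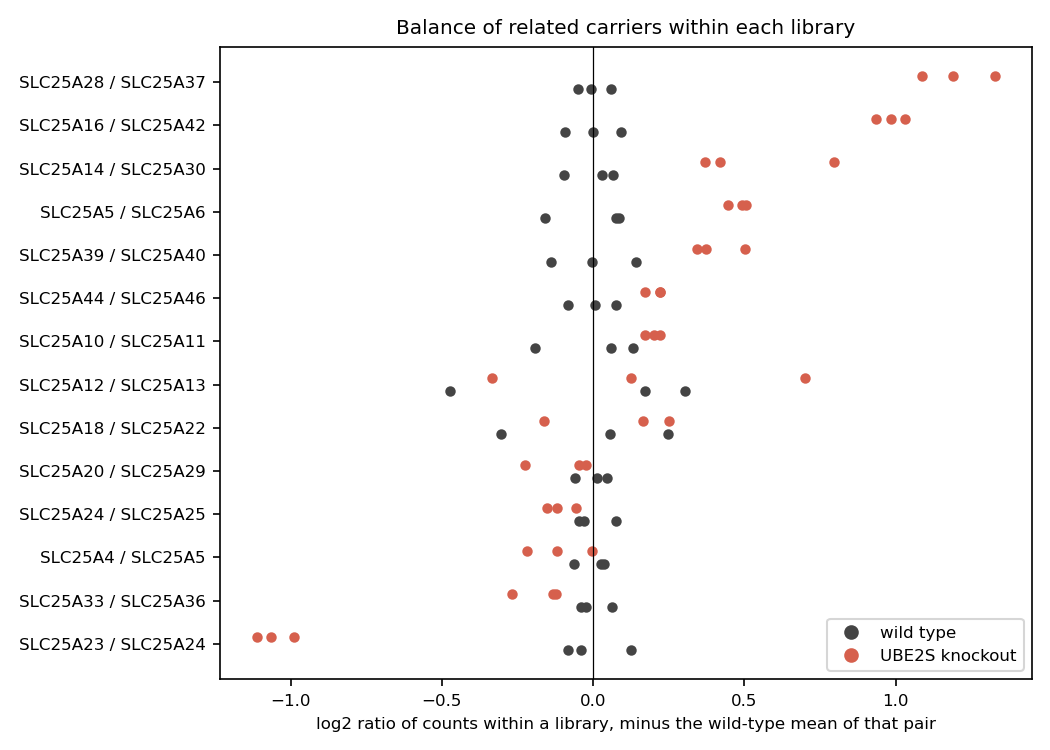
Log2 ratio of the counts of 2 related carriers within each library, minus the wild-type mean of that pair, for 14 pairs; each point is 1 library (wild type dark grey, knockout red). The ratio moved furthest for SLC25A28 to SLC25A37 (by 1.20) and, downward, for SLC25A23 to SLC25A24 (by -1.05).

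Because several carriers lay at the value of their chromosome neighbours, each was set beside the median log2 fold change of up to 25 tested genes on each side of it. Fewer were used on a side where the chromosome ended first. Of the 23 called carriers, 15 kept their call and direction when that median was taken as an offset in the fit, 8 higher and 7 lower. The 8 that did not were SLC25A1, SLC25A6, SLC25A10, SLC25A13, SLC25A14, SLC25A28, SLC25A40 and SLC25A44. Of these, SLC25A14 had neighbours at 0.01 and stayed at 0.31 (edgeR adjusted p = 0.053). Among the carriers that passed the threshold with the offset alone were SLC25A3 (0.16), SLC25A33 (0.36) and SLC25A17 (0.19, from -0.11) as higher, and SLC25A4 (-0.26) and SLC25A22 (-0.18) as lower. With it 51.2% of the carriers were called, against 54.5% of all genes; 11 were higher (background 26.8%) and 10 lower (background 27.7%). Why neighbouring genes shared a value was not tested.

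**Figure D5:**
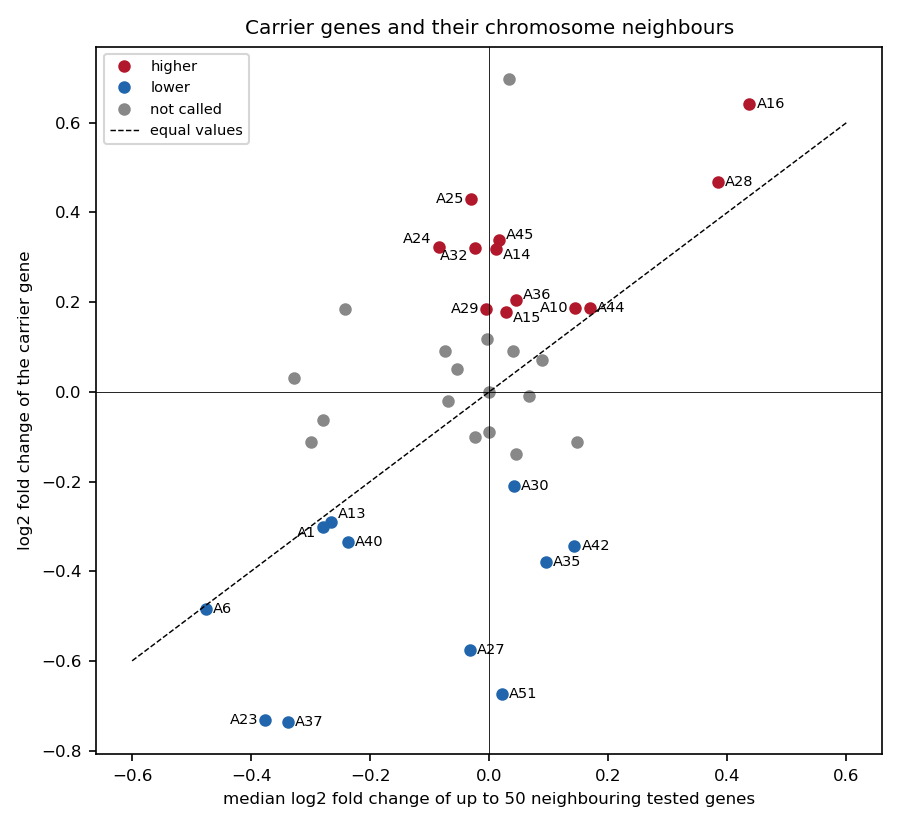
Log2 fold change of 40 of the 41 tested carriers against the median log2 fold change of up to 50 neighbouring tested genes (called carriers are labelled without SLC25; the dashed line marks equal values). SLC25A6, SLC25A13 and SLC25A1 lie at the line, while SLC25A51, SLC25A27, SLC25A42, SLC25A35, SLC25A25 and SLC25A24 lie furthest from it among the called carriers.

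Genes that work with the carriers were counted from lists, and are given beside the background of 29.4% higher and 30.7% lower. Of 5 family members under other symbols, 2 were higher: the uncoupling proteins UCP2 (0.34, SE 0.05) and, at 1.21 and 1.94 CPM, UCP1 (0.67, SE 0.23; 0.33 with the offset and not called). MTCH1, MTCH2 and UCP3 were not called. Of 13 genes that import carriers into the inner membrane, through the outer-membrane receptor TOMM70 and the TIM22 complex, 3 were higher and 6 lower (median 0.00071). AGK, a subunit of that complex, rose (0.41, SE 0.04) and the chaperone TIMM13 fell (-0.44, SE 0.06), though TIMM13 was at -0.02 with the offset of its neighbours and not called.

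Of 23 other mitochondrial transporters, 9 were higher and 7 lower (median -0.04), led by the sideroflexin SFXN3 (0.96, SE 0.06) and by MPC2 (-0.71, SE 0.03), a subunit of the pyruvate carrier, whose partner MPC1 was at 0.02 (SE 0.04). Of 25 enzymes of the citric acid cycle and the malate-aspartate shuttle, 5 were higher and 11 lower (median -0.08), led by IDH2 (0.22, SE 0.04; not called with the offset, -0.00077) and by PDHA1 of the pyruvate dehydrogenase complex (-0.80, SE 0.04). Of 10 genes of the mitochondrial one-carbon pathway, which uses the folate that SLC25A32 carries, 7 were higher and 2 lower (median 0.23). MTHFD1L was at 0.68 (SE 0.05) and GCSH, a subunit of the glycine cleavage system, at -0.52 (SE 0.04). The list includes other subunits of that system, of which DLD is also among the citric acid cycle enzymes. Of 16 genes of heme and iron-sulfur cluster synthesis, 4 were higher and 5 lower (median -0.04), with UROS at 0.52 (SE 0.04) and CPOX at -0.47 (SE 0.04). With the offset, UROS was at 0.12 and CPOX at -0.34, both still called. Of 11 tested regulators of mitochondrial biogenesis, 2 were higher and 5 lower (median -0.05). The coactivator PPARGC1A fell from 5.63 to 3.59 CPM (-0.64, SE 0.12), and the rise of TFB1M (0.31, SE 0.08) was not called with the offset (0.06).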

How the data were processed

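Poly(A) RNA was measured in 6 Huh7 libraries, grouped by sample title. Estimated counts, not normalized, were deposited by the authors in 1 table with a row for each gene. StringTie 1.3.1, DESeq2, HISAT2 and Bowtie2 2.2.8 are listed in the submitters' processing notes, which state no role for them. Not given in the sources used here were the counting program, annotation, genome build and strand setting. Counts were rounded to whole numbers. In 7 carriers some estimates were not whole. GENCODE release 29 (GRCh38) was matched by identifier to 20171 genes (99.4%) and to all 48 carriers.

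Genes were kept by filterByExpr (minimum count 10), scaled by TMM and tested with the quasi-likelihood F test of edgeR 4.0.16 in R 4.3.3, without covariates. P-values were adjusted over all 13265 tested genes by Benjamini-Hochberg, with a threshold of 0.05. In the offset fit, the median log2 fold change of up to 25 tested genes on each side was added to the knockout libraries. Pair ratios used a pseudocount of 0.5. On counts simulated from these libraries for knockout against wild type (13176 genes tested), edgeR recovered 66% of 50 genes changed by 0.3 (log2), 78% at 0.5, 98% at 1 and 100% at 2. Only the genes of these steps, 50 in each, were changed. In the data 60.1% of the tested genes were called, so the recovered shares need not hold there.

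Alternatives were RLE and upper-quartile scaling, 2 other filters, DESeq2 1.42.0, limma-voom (limma 3.58.1), a block for the replicate number, leaving out single libraries, and a threshold of 0.01. Tested carriers are named, except an item that is not reported here. Per-library values are given for the most abundant of each class per kilobase, those called with an absolute change of at least 0.5, and pairs called in opposite directions, and those of SLC25A3, SLC25A6, SLC25A25 and SLC25A48 were added after their values were seen. The carriers, lists and pairs were chosen with earlier results of these data known.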

Additional observations from a re-analysis of the deposited data

How the results depend on the processing

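The number of carriers called, 23 with all libraries, was 20 to 26 when single libraries were left out (10 to 13 higher, 10 to 13 lower) and 18 to 24 under the other settings; over all genes, leaving out a library gave 7142 to 8457 calls. DESeq2 called 19 carriers. Of the 23 calls, 16 kept call and direction under every setting except the neighbour offset, and 10 also under it. Same-numbered libraries shared no clear deviation from their group means (correlations -0.037 to 0.024). The labels do not say whether they were handled in pairs. With the replicate block 24 carriers were called, and SLC25A3 was gained (0.09, edgeR adjusted p = 0.045). SLC25A3 was also called without wild-type replicate 2 (0.12) or 3 (0.12), and SLC25A4 (-0.16), SLC25A17 (-0.19), SLC25A20 (0.10) and SLC25A39 (0.12) without wild-type replicate 1, and SLC25A22 (-0.18) without wild-type replicate 3. SLC25A5 was at 0.0027 with RLE scaling, 0.012 with upper-quartile scaling, 0.00072 with a minimum of 1 CPM and 0.0015 with DESeq2, and SLC25A11 at 0.0051 with upper-quartile scaling. With the neighbour offset, SLC25A17 (0.19), SLC25A18 (0.22), SLC25A39 (-0.016) and SLC25A46 (0.049) changed sign. With single libraries left out, ranges that crossed 0 were those of SLC25A5 (-0.024 to 0.012), SLC25A11 (-0.030 to 0.013), SLC25A12 (-0.44 to 0.11), SLC25A18 (-0.20 to 0.095), SLC25A33 (-0.021 to 0.062) and the ratios of SLC25A12 to SLC25A13 (-0.11 to 0.41) and of SLC25A18 to SLC25A22 (-0.067 to 0.21). The cause of these changes was not tested. SLC25A12, SLC25A34 and SLC25A53 had 7 to 21 counts a library and SEs of 0.37, 0.25 and 0.35, the widest among the tested carriers; the part of depth in their missing calls was not tested.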
